A study of Homo sapiens with 24 samples.

Results

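The genes described here are the protein-coding histone genes of A549 cells, a human lung adenocarcinoma line. They were chosen by name alone from the 58302 genes of the A549 expression table. A gene was taken as a replication-dependent histone gene (a HIST gene below) if it is protein coding and its symbol starts with HIST1H, HIST2H, HIST3H or HIST4H, and as a replacement histone gene if its symbol starts with H1F, H2AF or H3F3. The rule found 87 genes, 71 HIST genes and 16 replacement genes. Of these, 77 were above 0 in at least 1 library, 61 HIST genes and all 16 replacement genes, and 10 HIST genes were listed at 0 in all 12 libraries. With a mean of at least 1 FPKM (fragments per kilobase of exon and per M fragments) over the 12 libraries as the condition for a test, 29 were tested, 19 HIST genes and 10 replacement genes.

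The A549 cells carried either a lentivirus for GPD1 (GPD1 cells) or a blank lentivirus (vector cells), and were grown in medium with 10 mM metformin or in medium without it. GPD1 reduces dihydroxyacetone phosphate to glycerol-3-phosphate in the cytosol. Metformin, taken against diabetes, is a biguanide known to slow mitochondrial respiration at complex I. The question behind the design was how GPD1 bears on the growth of cancer cells in the presence and absence of the drug. Each of the 4 groups (vector untreated, vector metformin, GPD1 untreated, GPD1 metformin) has 3 libraries of polyadenylated RNA, out of 24 samples in the series. The other 12 samples, of the kidney cancer line 786-O, were not analysed here. Whether libraries of 1 group are separate cultures or transductions, and how long the drug was given, is not in the labels. Every p-value therefore rests on the spread between libraries that may be technical repeats, and a difference between GPD1 and vector cells may include other differences between the transduced populations.

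Histones are the proteins on which DNA is wound: H2A, H2B, H3 and H4 form the core of the nucleosome, and linker histones of the H1 family bind where the DNA enters and leaves it. Replication-dependent histone genes lie mostly in clusters, have no introns, and are transcribed in S phase, and their mRNAs normally end just after a conserved stem-loop instead of in a poly(A) tail. Some of them can also run past the stem-loop to a poly(A) signal further on, and such transcripts are known from cells that have left the cycle. Replacement histone genes lie alone, mostly have introns, and give polyadenylated mRNAs throughout the cell cycle. A library of polyadenylated RNA thus holds the replacement transcripts and only the polyadenylated share of the HIST transcripts, so HIST values here are no measure of all histone mRNA.

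The labels and the libraries were checked first. GPD1 stood between 0.0248 and 0.103 FPKM in the 6 vector libraries and between 13.3 and 16.8 FPKM in the 6 GPD1 libraries. The depth, read from the steps between low values, was 13.3 to 18.0 M reads or fragments. A single read on a gene of 1 kb thus stood for 0.0556 to 0.0753 FPKM. Markers of A549 cells were high, with means of 2671 FPKM for ALDH1A1 and 1295 FPKM for AKR1B10, whereas NKX2-1 and SFTPC, markers of lung epithelium, were near 0 at 0.0221 and 0.0204 FPKM. Among epithelial markers KRT7 and KRT18 had means of 247 and 127 FPKM, and EPCAM and KRT19 only 0.658 and 0.0218 FPKM. Of the markers of other cell types, CD3E, DCN and CDH5 were at 0 in all libraries, while CD14 and COL1A1 were detected at means of 4.44 and 3.57 FPKM. The kidney markers CDH16 and PAX2 were detected in every library, at means of 1.83 and 1.22 FPKM, and PAX8 was at 0.0675 FPKM. The part of these markers in the histone results was not tested. Transcripts of the mitochondrial genome took up 32.9% to 33.2% of the summed FPKM in untreated vector cells and 13.7% to 14.9% with metformin. In GPD1 cells they took up 30.2% to 32.3% and 10.3% to 11.4%. This share moves with the drug, and it enters every FPKM through the library total, so counts with totals taken without these genes are given beside the metformin results.

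Tested HIST genes had fewer reads than tested replacement genes, with a mean of 6.50 to 235 reads per library against 447 to 5911. Their levels in FPKM overlapped: HIST1H2BK, at a mean of 39.3 FPKM, was above every replacement gene for a core histone. The 55 HIST genes on chromosome 6 lie between positions 25726132 and 27893843 (GRCh38), 15 lie on chromosome 1 and 1 on chromosome 12. The replacement genes are spread over 11 chromosomes. For 33 of the 71 HIST genes (7 of the 19 tested) the annotated exons hold the coding region only, so that reads in their untranslated ends could not be counted for them. This was so for 1 of 16 replacement genes and for none of the 10 tested. Exons of 6 of the 10 tested replacement genes overlap another gene, in the case of H1FX, H2AFZ and H3F3A an antisense gene. The labels state no strand for the libraries, so reads of both partners cannot be told apart. HIST2H2AA3 and HIST2H2AA4 have the same coding sequence (393 bases), and so do HIST1H4K and HIST1H4J (312 bases). How reads were shared within these pairs is not given in the sources used here, and their single values are uncertain.

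The annotated transcripts (GENCODE release 29) show which histone genes can be seen both with and without a poly(A) tail. The stem-loop was looked for by its 16-base consensus on the transcript's own strand. It was present in a transcript of all 12 tested HIST genes whose exons go beyond the coding region, of 32 of the 71 HIST genes, of 1 of the 16 replacement genes, H2AFX, and of 50 of 19684 protein-coding genes in all (0.254%). In 7 of the 12 the annotated transcript runs at least 100 bases past it. The sites are shown because the genes whose values are given below differ in how far they run past this element, with the 16-base stem-loop in capitals:
HIST3H2A: cataaaGGCTCTTTTCAGAGCCacctac
HIST2H2BE: tccaaaGGCTCTTTTCAGAGCCacccac
HIST1H2AC: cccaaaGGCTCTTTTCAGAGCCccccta
HIST1H3H: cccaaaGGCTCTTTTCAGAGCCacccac
HIST1H2BC: cccaaaGGCTCTTTTAAGAGCCacccag
HIST1H2BD: cccaaaGGCTCTTTTAAGAGCCacgcat
HIST1H4J: ataaaaGGCCCTTTTCAGGGCCacccta
H2AFX: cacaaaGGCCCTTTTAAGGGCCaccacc
The HIST2H2BE transcript goes on for 1729 bases after the stem-loop, that of HIST1H3H for 769, that of HIST3H2A for 390 and that of HIST1H2BC for 116. The annotated HIST1H2BD transcript with the stem-loop ends 39 bases after it, and a second HIST1H2BD transcript lacks it. For HIST1H4J the transcript ends 6 bases after it, the form known for transcripts without a tail. Both transcripts of H2AFX hold the element and run 821 and 1044 bases past it, so H2AFX, although named among the replacement genes, has the end signals of both classes. A match is a description of the letters and not a measured end.

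The promoters of HIST genes share short elements. In the 250 bases before the start site (RefSeq, GRCh38.p14, 75 of the 87 genes matched) the TATA box TATAAA stood, on either strand, in 67.2% of 61 HIST promoters and 28.6% of 14 replacement promoters, against 11.1% of 27305 promoters in all. CCAAT was found in 83.6% of HIST, 78.6% of replacement and 33.0% of all promoters. The octamer ATTTGCAT, the site of OCT1, was found in 34.4% of HIST promoters and in 1.66% of all. By family it was in 69.2% of 13 HIST H2B promoters and 68.8% of 16 HIST H2A promoters, in 1 of 13 H3 promoters, and in none of the H1 and H4 promoters. The 120 bases just before the start of 6 genes are printed because their transcripts moved in different ways below, with these motifs in capitals (ATTGG and ATGCAAAT are CCAAT and the octamer on the other strand):
HIST1H2BK, chr6:27146859-27146978, minus strand: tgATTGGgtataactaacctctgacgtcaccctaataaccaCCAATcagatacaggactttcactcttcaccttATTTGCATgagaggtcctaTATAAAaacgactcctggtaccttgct
HIST1H2BD, chr6:26158001-26158120, plus strand: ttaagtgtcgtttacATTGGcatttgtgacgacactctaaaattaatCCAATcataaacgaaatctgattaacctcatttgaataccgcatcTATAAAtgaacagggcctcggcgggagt
HIST1H1C, chr6:26056471-26056590, minus strand: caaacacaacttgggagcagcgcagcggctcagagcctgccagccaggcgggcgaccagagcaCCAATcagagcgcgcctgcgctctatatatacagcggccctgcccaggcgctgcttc
HIST1H4J, chr6:27823972-27824091, plus strand: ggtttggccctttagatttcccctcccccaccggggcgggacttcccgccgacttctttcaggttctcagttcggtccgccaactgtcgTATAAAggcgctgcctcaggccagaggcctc
H2AFX, chr11:119095466-119095585, minus strand: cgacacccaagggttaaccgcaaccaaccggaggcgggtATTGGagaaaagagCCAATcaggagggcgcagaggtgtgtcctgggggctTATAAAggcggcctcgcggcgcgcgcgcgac
H3F3B, chr17:75779780-75779899, minus strand: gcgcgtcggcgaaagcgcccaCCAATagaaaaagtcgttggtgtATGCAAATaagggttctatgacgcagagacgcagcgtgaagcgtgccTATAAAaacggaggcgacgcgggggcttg
HIST1H2BK holds all 3 motifs in this window. H3F3B, the only gene with the octamer among the 14 replacement genes matched, also holds all 3.

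Summed over all 71 genes, HIST transcripts stood at 118, 113 and 116 FPKM in the untreated vector libraries and at 86.6, 109 and 100.4 FPKM with metformin. In GPD1 cells the sum was 158, 147 and 144 FPKM untreated and 149.6, 156 and 158 FPKM with metformin. Each GPD1 library was above every vector library of the same treatment. Metformin libraries lay below untreated ones in vector cells without overlap, whereas in GPD1 cells both groups overlapped. These sums rest on few genes: without the 4 HIST genes of highest mean level the vector means were 52.7 ± 3.57 and 26.9 ± 2.69 FPKM (mean ± SD, n = 3), and the GPD1 means 59.9 ± 1.32 and 45.1 ± 1.65 FPKM, untreated and with metformin. Fewer cells in a phase of the cycle and less transcript per cell cannot be told apart in such bulk libraries.

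The histone families moved in different directions with metformin. The H1 family sum (6 HIST genes, nearly all HIST1H1C) was 14.2 ± 2.61 FPKM in untreated and 27.2 ± 3.58 FPKM in treated vector cells, and 17.2 ± 1.28 and 39.5 ± 1.28 FPKM in GPD1 cells. For the H3 family (15 genes) the means went the other way, 9.50 ± 0.640 and 3.56 ± 0.512 FPKM in vector cells and 10.7 ± 0.667 and 4.18 ± 0.823 FPKM in GPD1 cells. The H2B family (18 genes) stood at 50.0 ± 0.514 and 30.5 ± 1.99 FPKM in vector cells and at 70.8 ± 4.72 and 56.4 ± 0.380 FPKM in GPD1 cells. For the H2A family (17 genes) the means were 33.4 ± 0.952 and 30.9 ± 6.10 FPKM in vector cells and 41.2 ± 1.55 and 42.6 ± 3.03 FPKM in GPD1 cells, with overlapping libraries. The H4 family (15 genes) stood at 8.72 ± 1.63 and 6.38 ± 0.475 FPKM in vector cells and at 9.91 ± 1.21 and 11.8 ± 0.625 FPKM in GPD1 cells, lower with the drug in the former and higher in the latter. Among replacement genes the linker and core sums went in opposite directions on the deposited totals. H1F0 and H1FX together were at 327 ± 12.7 and 402 ± 22.1 FPKM in vector cells and at 343 ± 3.98 and 497 ± 5.92 FPKM in GPD1 cells. The 12 replacement genes for core histones were at 202 ± 1.47 and 98.4 ± 5.31 FPKM in vector cells and at 177 ± 1.88 and 114 ± 1.58 FPKM in GPD1 cells, although 1 of them, H3F3B, was higher with the drug. These sums, and those over all HIST genes, are descriptions on the deposited totals, and the tests below are per gene. Totals without mitochondrial genes divide the values by 0.884 to 0.886 in untreated and 1.06 to 1.11 in treated vector libraries. In GPD1 libraries the divisors are 0.880 to 0.902 and 1.16 to 1.18. Every rise above is therefore smaller there and every fall larger. The rises of the replacement linker sum in vector cells and of H4 in GPD1 cells hold on the deposited totals only. So does the overlap of the summed HIST values in GPD1 cells. With totals without mitochondrial genes, the log2 differences of H1FX and H1F0 with metformin in vector cells were 0.02 and -0.03.

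**Figure D1:**
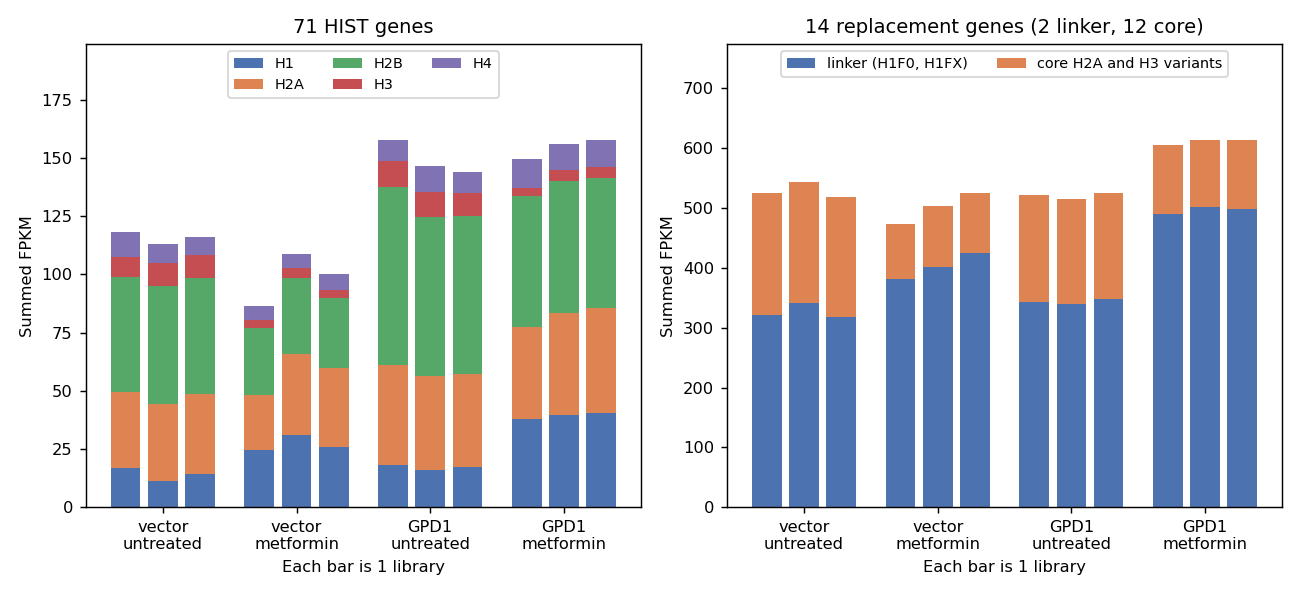
Summed FPKM (vertical axis, starting at 0 in each panel) in each of the 12 A549 libraries, 1 stacked bar a library, for the 71 HIST genes split by family (left) and for the 14 replacement linker and core genes (right). On the deposited totals the H1 family and the replacement linker genes are higher with metformin in both kinds of cells, and the H3 family and the replacement core genes are lower.

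H1FX and H1F0, linker genes of the replacement class, had the highest FPKM of the histone genes in these libraries of polyadenylated RNA. H1FX (ENSG00000184897, chromosome 3, 129314771 to 129316277), which encodes the linker histone H1X, stood at 186, 209 and 185 FPKM in untreated vector libraries and at 237, 237 and 249 FPKM with metformin. The values in GPD1 cells were 222, 210.3 and 216 FPKM untreated and 336, 339 and 343 FPKM with metformin. Treated libraries were above untreated ones in both kinds of cells, and the treated GPD1 libraries were the highest of all. The mean was 1.25-fold higher with metformin in vector cells (log2 difference 0.32, SE 0.05; limma, adjusted p = 1.5e-04) and 1.57-fold higher in GPD1 cells (log2 difference 0.65, SE 0.05; limma, adjusted p = 5.2e-07). H1F0 (ENSG00000189060, chromosome 22, 37805093 to 37807436) encodes H1.0, the linker histone known from differentiated and resting cells. It was at 136, 132 and 133 FPKM untreated and 144, 165 and 176 FPKM with metformin in vector cells, and at 121, 129 and 132 and 154, 162 and 155 FPKM in GPD1 cells. The groups did not overlap in either kind of cell, and the mean was 1.21-fold (log2 difference 0.27, SE 0.06; limma, adjusted p = 0.00332) and 1.24-fold higher (log2 difference 0.30, SE 0.06; limma, adjusted p = 0.00145). All but the rise of H1FX in GPD1 cells depended on the library total. With totals taken without mitochondrial genes the log2 differences were 0.02 for H1FX (limma, adjusted p = 0.724) and -0.03 for H1F0 (limma, adjusted p = 0.655) in vector cells, and -0.08 for H1F0 in GPD1 cells (limma, adjusted p = 0.205). That of H1FX in GPD1 cells was then 0.26 (limma, adjusted p = 5.99e-04).

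H2AFX showed the largest fall among the replacement genes tested, in both kinds of cells. H2AFX (ENSG00000188486, chromosome 11, 119093854 to 119095467) encodes H2A.X, which is phosphorylated around DNA breaks. It was at 61.4, 67.3 and 59.6 FPKM in untreated vector libraries and at 13.5, 14.5 and 14.9 FPKM with metformin. In GPD1 libraries the values were 52.9, 47.0 and 48.1 FPKM and 8.92, 9.73 and 10.8 FPKM. Every treated library was below every untreated one. Its mean fell 4.39-fold in vector cells (log2 difference -2.06, SE 0.07; limma, adjusted p = 1.6e-09) and 5.02-fold in GPD1 cells (log2 difference -2.22, SE 0.07; limma, adjusted p = 1.5e-09).

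The genes for H2A.Z, a variant found at the start sites of genes, both fell with metformin, but by different amounts in vector and in GPD1 cells. H2AFZ (ENSG00000164032, chromosome 4, 99948086 to 99950388) stood at 32.5, 30.5 and 31.7 FPKM untreated and 14.6, 15.2 and 13.7 FPKM treated in vector cells, and at 29.6, 29.5 and 30.5 and 8.71, 8.90 and 9.00 FPKM in GPD1 cells. The untreated libraries of both kinds of cells lay close together, and the treated GPD1 libraries were the lowest. H2AFZ fell 2.18-fold in vector cells (log2 difference -1.07, SE 0.04; limma, adjusted p = 4.2e-09) and 3.37-fold in GPD1 cells (log2 difference -1.65, SE 0.04; limma, adjusted p = 4.4e-10). H2AFV (ENSG00000105968, chromosome 7, 44826791 to 44848083), the second gene for H2A.Z, was at 25.3, 24.4 and 24.2 FPKM untreated and 9.70, 10.0 and 9.77 FPKM treated in vector cells. GPD1 cells held 22.4, 22.5 and 24.4 and 12.9, 14.2 and 13.9 FPKM. Here the treated vector libraries were the lowest. H2AFV fell 2.50-fold in vector cells (log2 difference -1.24, SE 0.05; limma, adjusted p = 2.3e-09) and 1.69-fold in GPD1 cells (log2 difference -0.71, SE 0.05; limma, adjusted p = 1.7e-07). The metformin response of GPD1 cells minus that of vector cells was therefore negative for H2AFZ (log2 difference -0.57, SE 0.06; limma, adjusted p = 3.9e-05) and positive for H2AFV (log2 difference 0.53, SE 0.07; limma, adjusted p = 1.1e-04).

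MacroH2A, an H2A with a large extra domain that is known from silent chromatin, is encoded by H2AFY and H2AFY2. H2AFY2 (ENSG00000099284, chromosome 10, 70052796 to 70112280) was at 27.7, 26.7 and 26.3 FPKM in untreated and 10.4, 10.0 and 10.1 FPKM in treated vector libraries. In GPD1 cells it was at 21.5, 20.2 and 19.3 FPKM untreated and 16.3, 16.4 and 14.9 FPKM treated. GPD1 libraries were below vector libraries without the drug and above them with it. The fall was 2.64-fold in vector cells (log2 difference -1.32, SE 0.05; limma, adjusted p = 2.4e-09) and 1.28-fold in GPD1 cells (log2 difference -0.34, SE 0.05; limma, adjusted p = 1.1e-04), and the latter was -0.10 with median-ratio scaling (limma, adjusted p = 0.0927). H2AFY (ENSG00000113648, chromosome 5, 135333900 to 135399914) was at 5.41, 5.62 and 5.91 FPKM and 3.45, 3.05 and 3.56 FPKM in vector cells, untreated and treated. Its GPD1 libraries were at 5.75, 6.30 and 5.66 and 2.92, 3.28 and 3.24 FPKM. Vector and GPD1 libraries overlapped under both conditions. H2AFY fell 1.68-fold (log2 difference -0.61, SE 0.06; limma, adjusted p = 5.1e-06) and 1.88-fold (log2 difference -0.73, SE 0.06; limma, adjusted p = 1.3e-06). H2AFJ (ENSG00000246705, chromosome 12, 14774383 to 14778002), the gene for H2A.J, was at 17.3, 15.7 and 17.2 FPKM untreated and 13.2, 14.9 and 14.2 FPKM treated in vector cells, and at 11.7, 11.4 and 13.6 and 12.4, 11.7 and 11.6 FPKM in GPD1 cells. Its groups were apart by treatment in vector cells and overlapped in GPD1 cells. The 1.19-fold fall in vector cells (log2 difference -0.23, SE 0.07; limma, adjusted p = 0.0105) was lost with median-ratio scaling (limma, adjusted p = 0.308). The difference in GPD1 cells did not pass the test (log2 difference -0.03, SE 0.07; limma, adjusted p = 0.699), and with median-ratio scaling it was 0.20 (limma, adjusted p = 0.0245). With totals taken without mitochondrial genes it was -0.39 (limma, adjusted p = 1.3e-04), so the direction called for H2AFJ in GPD1 cells depended on the scaling.

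H3F3A and H3F3B encode the same protein, the replacement histone H3.3, and their transcripts moved apart. H3F3B (ENSG00000132475, chromosome 17, 75776434 to 75785893) was at 21.2, 20.0 and 21.3 FPKM untreated and 22.1, 27.6 and 27.0 FPKM treated in vector cells. The values in GPD1 cells were 23.3, 26.6 and 24.6 and 42.7, 40.5 and 41.2 FPKM. Treated GPD1 libraries stood far above all others. It rose 1.23-fold in vector cells (log2 difference 0.28, SE 0.08; limma, adjusted p = 0.00741), a difference of -0.01 once library totals left out mitochondrial genes (limma, adjusted p = 0.943), and 1.67-fold in GPD1 cells (log2 difference 0.72, SE 0.08; limma, adjusted p = 8.9e-06). H3F3A (ENSG00000163041, chromosome 1, 226061851 to 226072001) was at 11.3, 11.4 and 12.5 FPKM untreated and 4.79, 5.93 and 6.28 FPKM treated in vector cells, and at 9.73, 10.4 and 10.9 and 9.58, 6.51 and 9.06 FPKM in GPD1 cells. The treated vector libraries were the lowest, and 1 treated GPD1 library, replicate 2, came close to them. H3F3A fell 2.07-fold in vector cells (log2 difference -0.94, SE 0.12; limma, adjusted p = 4.1e-05), and its difference in GPD1 cells did not pass the test (log2 difference -0.29, SE 0.12; limma, adjusted p = 0.0561). It passed without GPD1 metformin replicate 1 or 3 or vector metformin replicate 1 (limma, adjusted p = 0.0230 to 0.0484), and once library totals left out mitochondrial genes it stood at -0.64 (limma, adjusted p = 4.6e-04).

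**Figure D2:**
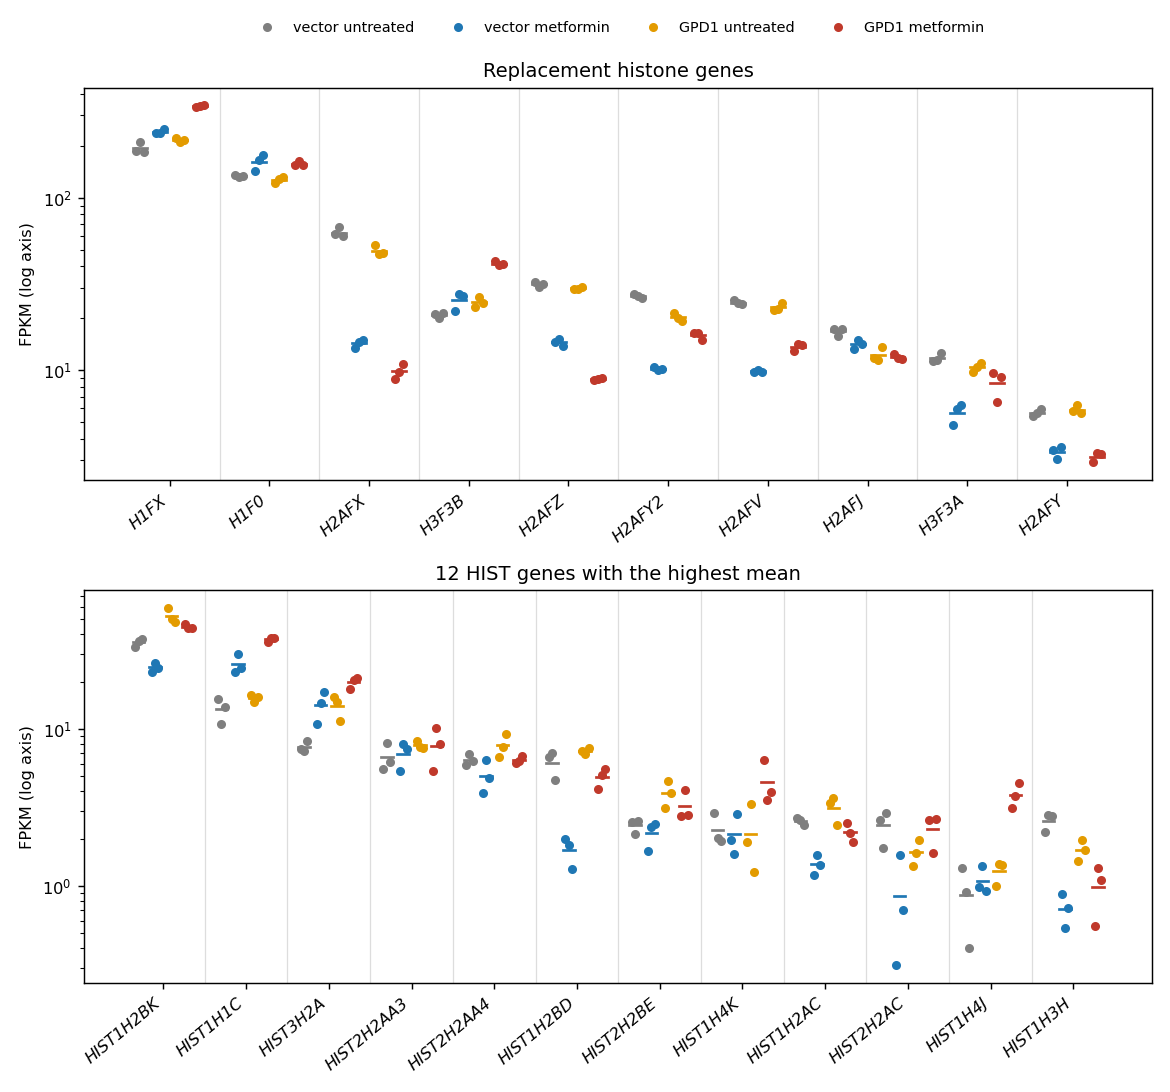
FPKM on a log axis in each of the 12 libraries, for the 10 tested replacement genes and the 12 HIST genes of highest mean level, with points coloured by group and a short line at each group mean. H2AFX, H2AFZ and HIST1H2BD are lower in the metformin libraries of both kinds of cells, HIST1H1C is higher, and HIST1H4J is highest in the GPD1 metformin libraries.

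Among HIST genes, HIST1H2BK had the highest level. HIST1H2BK (ENSG00000197903, chromosome 6, 27146418 to 27146798), a gene for H2B, was at 33.0, 36.1 and 37.4 FPKM in untreated vector libraries and at 23.1, 26.4 and 24.6 FPKM with metformin. GPD1 cells held 58.6, 50.1 and 48.2 FPKM untreated and 46.6, 43.5 and 43.6 FPKM treated. Every GPD1 library, treated or not, was above every vector library. The drug lowered it 1.44-fold in vector cells (log2 difference -0.51, SE 0.08; limma, adjusted p = 1.3e-04) and 1.17-fold in GPD1 cells (log2 difference -0.22, SE 0.08; limma, adjusted p = 0.0233). The second call was lost without GPD1 metformin replicate 2 or 3 or GPD1 untreated replicate 1 (limma, adjusted p = 0.0645 to 0.0940), and with median-ratio and upper-quartile scaling the difference was 0.03 (limma, adjusted p = 0.784) and -0.09 (limma, adjusted p = 0.314).

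HIST1H1C and HIST3H2A rose with metformin in both kinds of cells. HIST1H1C (ENSG00000187837, chromosome 6, 26055787 to 26056428), which encodes the linker histone H1.2, stood at 15.5, 10.8 and 13.7 FPKM in untreated and 23.1, 30.0 and 24.5 FPKM in treated vector libraries. In GPD1 cells it was at 16.3, 14.8 and 15.9 and 35.6, 38.0 and 38.0 FPKM. All 6 treated libraries were above all 6 untreated ones. It rose 1.94-fold in vector cells (log2 difference 0.91, SE 0.12; limma, adjusted p = 4.1e-05) and 2.38-fold in GPD1 cells (log2 difference 1.20, SE 0.12; limma, adjusted p = 4.9e-06). HIST3H2A (ENSG00000181218, chromosome 1, 228456979 to 228457873), a gene for H2A outside the chromosome 6 cluster, was at 7.44, 7.20 and 8.33 FPKM and 10.8, 14.6 and 17.1 FPKM in vector cells, untreated and treated, and at 15.9, 14.7 and 11.3 and 17.9, 20.3 and 20.9 FPKM in GPD1 cells. Untreated vector libraries were the lowest, and treated vector libraries overlapped untreated GPD1 libraries. It rose 1.85-fold in vector cells (log2 difference 0.79, SE 0.15; limma, adjusted p = 7.8e-04) and 1.41-fold in GPD1 cells (log2 difference 0.48, SE 0.15; limma, adjusted p = 0.0157). The call in GPD1 cells was lost without GPD1 metformin replicate 3 or GPD1 untreated replicate 3 (limma, adjusted p = 0.0507 to 0.0665) or with the length trend removed (limma, adjusted p = 0.0831), and the difference was 0.11 once library totals left out mitochondrial genes (limma, adjusted p = 0.508).

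HIST1H2BD and HIST1H2AC were lower with metformin in both kinds of cells, and HIST2H2AC in vector cells. HIST1H2BD (ENSG00000158373, chromosome 6, 26158146 to 26171349), a gene for H2B, was at 6.59, 6.97 and 4.75 FPKM untreated and 2.00, 1.82 and 1.28 FPKM treated in vector cells. Its GPD1 libraries were at 7.24, 6.89 and 7.54 and 4.16, 5.08 and 5.58 FPKM. Treated vector libraries lay below all others. The fall was 3.59-fold in vector cells (log2 difference -1.39, SE 0.14; limma, adjusted p = 4.4e-06) and 1.46-fold in GPD1 cells (log2 difference -0.48, SE 0.14; limma, adjusted p = 0.00973), the second lost with median-ratio scaling (log2 difference -0.26; limma, adjusted p = 0.117). HIST1H2AC (ENSG00000180573, chromosome 6, 26124145 to 26139116), a gene for H2A, was at 2.71, 2.62 and 2.45 FPKM untreated and 1.17, 1.57 and 1.37 FPKM treated in vector cells, and at 3.36, 3.62 and 2.43 and 2.51, 2.18 and 1.90 FPKM in GPD1 cells. Its groups were apart in vector cells and overlapped by 1 library in GPD1 cells. It fell 1.89-fold (log2 difference -0.60, SE 0.11; limma, adjusted p = 5.9e-04) and 1.43-fold (log2 difference -0.36, SE 0.11; limma, adjusted p = 0.0136), and the second call was lost without GPD1 metformin replicate 3 or GPD1 untreated replicate 2 (limma, adjusted p = 0.0556 to 0.0588), with median-ratio scaling (log2 difference -0.18; limma, adjusted p = 0.176) and with upper-quartile scaling (log2 difference -0.27; limma, adjusted p = 0.0556). Its falls in vector and GPD1 cells did not differ detectably (log2 difference 0.24, SE 0.16; limma, adjusted p = 0.25). HIST2H2AC (ENSG00000184260, chromosome 1, 149886975 to 149887364), a gene for H2A, was at 2.64, 1.76 and 2.90 FPKM and 0.314, 1.57 and 0.706 FPKM in vector cells and at 1.34, 1.62 and 1.96 and 2.63, 1.63 and 2.65 FPKM in GPD1 cells, untreated and treated. It fell 2.82-fold in vector cells (log2 difference -0.92, SE 0.23; limma, adjusted p = 0.00417), with groups that did not overlap, and its difference in GPD1 cells did not pass the test (log2 difference 0.31, SE 0.23; limma, adjusted p = 0.243). The annotated HIST2H2AC transcript has only 390 bases, so 0.314 to 1.57 FPKM in treated vector libraries are few reads and the fold is imprecise.

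The pair HIST2H2AA3 and HIST2H2AA4, whose coding sequences are the same, and HIST2H2BE passed no metformin test on the values as deposited. HIST2H2AA3 (ENSG00000203812, chromosome 1, 149842188 to 149842736) was at 5.51, 8.11 and 6.17 and 5.35, 8.00 and 7.39 FPKM in vector cells and at 8.40, 7.65 and 7.55 and 5.36, 10.1 and 8.00 FPKM in GPD1 cells, untreated and treated. HIST2H2AA4 (ENSG00000272196, chromosome 1, 149851061 to 149851624) was at 5.90, 6.88 and 6.28 and 3.91, 6.31 and 4.88 FPKM in vector cells and at 6.59, 7.65 and 9.27 and 6.07, 6.25 and 6.76 FPKM in GPD1 cells. All 4 groups of each gene overlapped with at least 1 other. HIST2H2BE (ENSG00000184678, chromosome 1, 149884459 to 149886652), a gene for H2B with a long polyadenylated transcript, was at 2.54, 2.13 and 2.61 and 1.67, 2.36 and 2.48 FPKM in vector cells and at 3.12, 4.66 and 3.89 and 2.78, 4.11 and 2.83 FPKM in GPD1 cells. Treated and untreated libraries overlapped in both, with log2 differences of -0.12 (SE 0.15; limma, adjusted p = 0.492) and -0.21 (SE 0.15; limma, adjusted p = 0.232). In GPD1 cells HIST2H2BE was called lower with totals taken without mitochondrial genes (log2 difference -0.51; limma, adjusted p = 0.00845). HIST2H2AA4 was then lower in vector cells (log2 difference -0.56; limma, adjusted p = 0.00253) and in GPD1 cells (log2 difference -0.59; limma, adjusted p = 0.00161). With the length trend removed it was also called lower in both (limma, adjusted p = 0.00504 and 0.0154), and in vector cells with the replicate block (limma, adjusted p = 0.0349) and without vector metformin replicate 2 (log2 difference -0.45; limma, adjusted p = 0.00851).

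The H4 genes HIST1H4J and HIST1H4K were highest in GPD1 cells with metformin. HIST1H4J (ENSG00000197238, chromosome 6, 27824108 to 27824480) was at 1.30, 0.918 and 0.404 FPKM untreated and 0.984, 1.34 and 0.922 FPKM treated in vector cells, or 2 to 9 reads a library. The values in GPD1 cells were 0.997, 1.39 and 1.37 FPKM untreated (5 to 9 reads) and 3.12, 3.72 and 4.50 FPKM treated (17 to 26 reads). The treated GPD1 libraries were above all 9 others. HIST1H4J rose 3.02-fold with metformin in GPD1 cells (log2 difference 1.08, SE 0.17; limma, adjusted p = 1.8e-04), and in vector cells it did not pass the test (log2 difference 0.18, SE 0.17; limma, adjusted p = 0.371). HIST1H4K (ENSG00000273542, chromosome 6, 27831216 to 27831527) has the same coding sequence, and the split of reads between them is uncertain. It was at 2.91, 2.01 and 1.93 and 1.96, 1.60 and 2.87 FPKM in vector cells and at 1.91, 3.32 and 1.23 and 6.37, 3.52 and 3.93 FPKM in GPD1 cells. Again the 3 treated GPD1 libraries were the highest. It rose 2.14-fold in GPD1 cells (log2 difference 0.85, SE 0.26; limma, adjusted p = 0.0117), a call lost without GPD1 metformin replicate 1 (limma, adjusted p = 0.0506) and with totals taken without mitochondrial genes (log2 difference 0.56; limma, adjusted p = 0.0707). HIST1H3H (ENSG00000278828, chromosome 6, 27810064 to 27811300), a gene for H3, was at 2.20, 2.81 and 2.80 and 0.890, 0.540 and 0.723 FPKM in vector cells and at 1.44, 1.95 and 1.70 and 0.554, 1.31 and 1.10 FPKM in GPD1 cells. Untreated libraries were above treated ones in both. The fall was 3.63-fold in vector cells (log2 difference -1.07, SE 0.15; limma, adjusted p = 5.1e-05) and 1.72-fold in GPD1 cells (log2 difference -0.46, SE 0.15; limma, adjusted p = 0.0149), the second lost without GPD1 metformin replicate 1 or GPD1 untreated replicate 2 (limma, adjusted p = 0.0527 to 0.0558) and with median-ratio scaling (log2 difference -0.32; limma, adjusted p = 0.0734).

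The other 7 tested HIST genes had means of 1.02 to 1.42 FPKM over the 12 libraries. Of these, HIST1H2BC, HIST1H2AM, HIST1H3B, HIST1H2AG, HIST1H2AI and HIST1H2BO were called lower with metformin in vector cells, between 2.77-fold for HIST1H3B and 8.06-fold for HIST1H2BC. HIST1H2AG, with 57 to 76 reads in untreated and 13 to 19 in treated vector libraries, fell 4.37-fold (log2 difference -0.99, SE 0.09; limma, adjusted p = 1.2e-06). HIST1H2BC and HIST1H2BO rested on few reads in treated vector cells, at most 6.10 and 2 a library, so their folds are imprecise. In GPD1 cells HIST1H3B, HIST1H2AG, HIST1H2AI, HIST1H2BO and HIST1H4I were called lower, between 1.44-fold for HIST1H4I and 3.57-fold for HIST1H2AI. The call for HIST1H4I was lost with median-ratio scaling (log2 difference -0.17; limma, adjusted p = 0.0919). HIST1H2AM and HIST1H2BC did not pass there, with log2 differences of -0.16 (SE 0.22; limma, adjusted p = 0.523) and -0.29 (SE 0.16; limma, adjusted p = 0.119). HIST1H2BC passed with totals taken without mitochondrial genes (log2 difference -0.49; limma, adjusted p = 0.0127) and with the length trend removed (log2 difference -0.44; limma, adjusted p = 0.0275).

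Counted together, metformin lowered more tested histone genes than it raised, in both kinds of cells. In vector cells 2 of the 19 HIST genes were called higher and 11 lower, and 3 of the 10 replacement genes higher and 7 lower. Of all 12607 genes tested with limma, 31.3% were called higher and 43.3% lower in this comparison (74.6% in either direction). The shares of both classes called lower were above that background, and no test of that difference was made. For HIST genes this depends on the level for a test. HIST1H2BC, HIST1H2AM, HIST1H3B, HIST1H2AG, HIST1H2AI and HIST1H2BO, all called lower, were close to it, and such genes can pass through their untreated libraries. Of the 25 members that entered with a filter at 0.2 FPKM, 7 were called lower, against 39.3% of all genes in that fit. In GPD1 cells 4 HIST genes were called higher and 9 lower, and 3 replacement genes higher and 5 lower, against 26.1% and 48.0% of all genes (74.2% in either direction). Those shares are near the background in this fit. After the trend with transcript length was removed, 11 HIST genes were lower and 3 higher in GPD1 cells, against 35.2% and 36.7% of all genes. The median log2 difference of the tested HIST genes was -0.60 in vector and -0.25 in GPD1 cells, that of the replacement genes -0.78 and -0.31, and that of all tested genes -0.10 and -0.20. The median of all genes moved with the scaling, between -0.34 and 0.02 in vector cells and between -0.49 and -0.01 in GPD1 cells. Relative to it, the HIST median stayed at -0.46 to -0.52 in vector cells under the 3 other scalings, and at -0.02 to -0.08 in GPD1 cells. With the length trend removed it was -0.78 in vector and -0.41 in GPD1 cells, so the small distance from all genes in GPD1 cells depends on leaving that trend in. With totals taken without mitochondrial genes the split over both classes, 5 higher and 18 lower in vector cells, became 2 and 20, while the shares over all genes became 21.3% and 55.4%. In GPD1 cells the split of 7 and 14 became 8 and 8 with median-ratio scaling, where 36.1% of all genes were higher and 37.2% lower.

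Over both kinds of cells, 5 of the 29 tested genes were called higher in both, 13 lower in both, and 0 in opposite directions. Of all 12607 genes 19.7% were called higher in both, 35.1% lower in both and 6.34% in opposite directions. The 5 were H1FX, H1F0, H3F3B, HIST1H1C and HIST3H2A, so 3 of them encode linker histones. With totals taken without mitochondrial genes, only HIST1H1C of these kept both calls. H1FX, H1F0 and H3F3B lost theirs in vector cells, H1F0 also in GPD1 cells, and HIST3H2A lost its call in GPD1 cells. The remaining 8 calls in 1 kind of cell only were 5 lower in vector cells, 1 lower in GPD1 cells and 2 higher in GPD1 cells, and a call in 1 of them alone is no sign of a difference between them. That difference was tested directly, below.

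**Figure D3:**
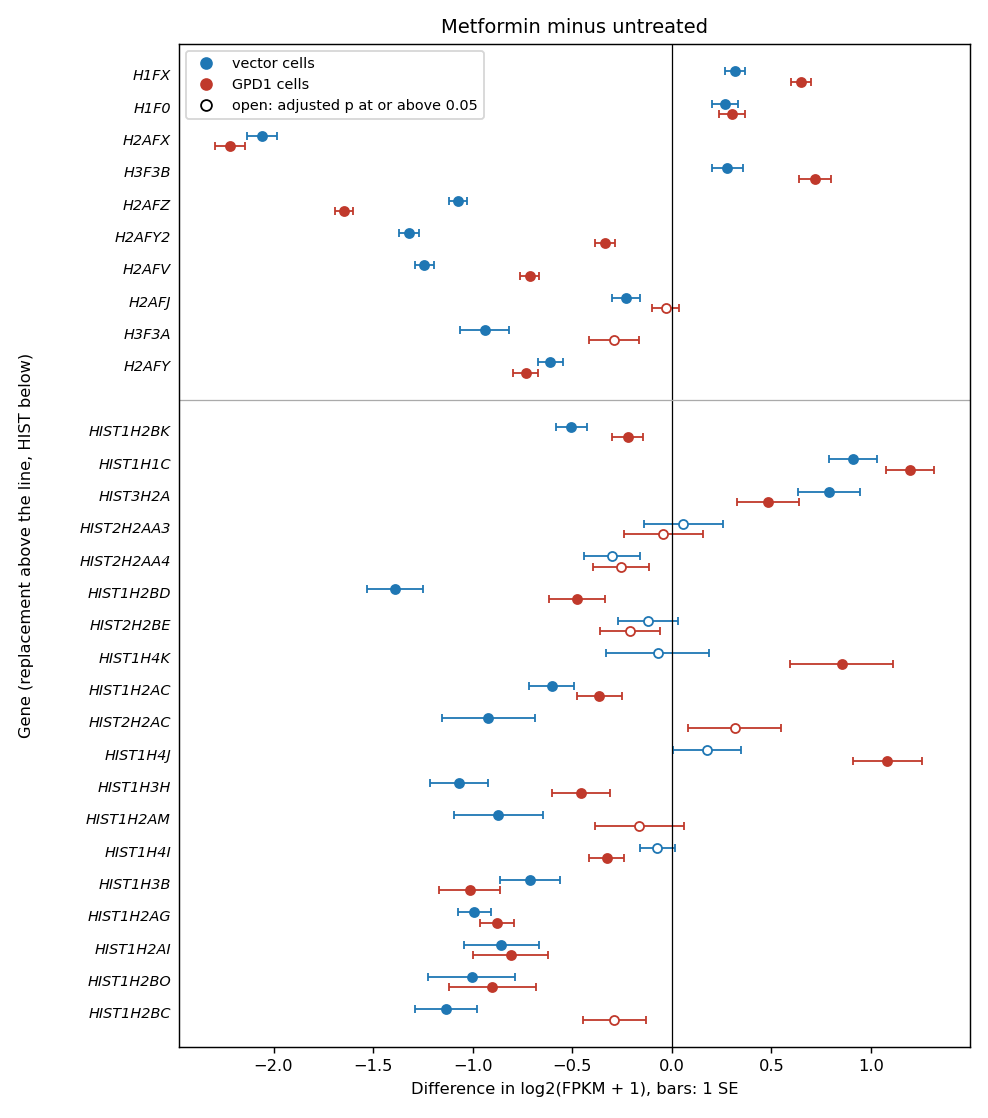
Difference in log2(FPKM + 1), metformin minus untreated, with bars of 1 SE, for the 29 tested histone genes in vector and in GPD1 cells; open points did not pass the limma test at an adjusted p under 0.05. H2AFX is the lowest point in both, HIST1H1C is to the right in both, and the values for H1FX, H1F0 and H3F3B, which are to the right here, are near 0 or turn in vector cells when library totals leave out mitochondrial genes.

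GPD1 cells held more of several HIST transcripts than vector cells, without and with metformin. Without the drug limma called 4 of 19 HIST genes higher and 0 lower, against 9.99% and 11.3% of all genes (21.3% in either direction). With the drug it called 11 higher and 0 lower, against 25.0% and 35.0% of all genes (60.0% in either direction). At an unadjusted p under 0.05 the HIST genes that were lower numbered 1 without the drug and 0 with it. Of the replacement genes 1 was higher and 3 lower without the drug, and 5 were higher and 3 lower with it. Over both classes the 5 genes higher without the drug became 3 when GPD1 untreated replicate 2 or vector untreated replicate 1 or 3 was left out. The calls over all genes were also more numerous with the drug, and of the 4 HIST genes called without it 3 (HIST3H2A, HIST2H2BE and HIST1H4I) had the larger difference there. The median log2 difference of HIST genes was 0.23 without and 0.42 with metformin, that of replacement genes -0.08 and 0.20, and that of all genes -0.01 and -0.05. The comparison with the drug shares its libraries with both metformin comparisons, and the one without the drug does so as well, so their values are set side by side only.

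HIST1H2BK was 1.47-fold higher in GPD1 cells without metformin (log2 difference 0.54, SE 0.08; limma, adjusted p = 5.9e-04) and 1.8-fold higher with it (log2 difference 0.83, SE 0.08; limma, adjusted p = 5.2e-06). HIST3H2A was 1.82-fold (log2 difference 0.78, SE 0.15; limma, adjusted p = 0.00474) and 1.39-fold higher (log2 difference 0.47, SE 0.15; limma, adjusted p = 0.0228). The second of these was lost without GPD1 metformin replicate 2 or 3 or vector metformin replicate 1 (limma, adjusted p = 0.0612 to 0.0845), with no filter (limma, adjusted p = 0.0577) and once library totals left out mitochondrial genes (limma, adjusted p = 0.0582). HIST1H4I, a gene for H4, was 1.68-fold higher without the drug (log2 difference 0.46, SE 0.09; limma, adjusted p = 0.00338). HIST2H2BE was 1.60-fold higher without the drug (log2 difference 0.50, SE 0.15; limma, adjusted p = 0.0377) and 1.49-fold with it (log2 difference 0.41, SE 0.15; limma, adjusted p = 0.0354). Its first call was lost without any 1 of GPD1 untreated replicates 2 and 3 and the 3 untreated vector libraries (limma, adjusted p = 0.0645 to 0.132), and its second without GPD1 metformin replicate 2 or vector metformin replicate 1 (limma, adjusted p = 0.135 to 0.139). Both of its calls were lost with no filter (limma, adjusted p = 0.0814 and 0.0851), and the second also in the fit of the compared groups alone (limma, adjusted p = 0.0580) and once library totals left out mitochondrial genes (limma, adjusted p = 0.0782).

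The largest ratios of GPD1 to vector cells under metformin were those of genes low in treated vector cells. HIST1H2BC, HIST1H4J and HIST2H2AC rested on few reads there, so their ratios and the order of the ratios are imprecise. HIST1H2BC was 4.59-fold higher (log2 difference 0.68, SE 0.16; limma, adjusted p = 0.00310), HIST1H4J 3.49-fold (log2 difference 1.19, SE 0.17; limma, adjusted p = 1.4e-04) and HIST1H2BD 2.90-fold (log2 difference 1.14, SE 0.14; limma, adjusted p = 4.0e-05). HIST2H2AC was 2.67-fold higher (log2 difference 0.87, SE 0.23; limma, adjusted p = 0.00805) and HIST1H2AC 1.61-fold (log2 difference 0.43, SE 0.11; limma, adjusted p = 0.00710). The linker gene HIST1H1C was 1.44-fold higher (log2 difference 0.52, SE 0.12; limma, adjusted p = 0.00353). HIST1H4K and HIST1H2AG completed the 11, at 2.15-fold and 1.72-fold. The call for HIST1H4K was lost without GPD1 metformin replicate 1 or vector metformin replicate 1 or 2 (limma, adjusted p = 0.0511 to 0.0730), and that for HIST1H2AG without GPD1 metformin replicate 3 or vector metformin replicate 1 (limma, adjusted p = 0.0548 to 0.0646).

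Replacement genes went in both directions. Without the drug H2AFX was 1.27-fold lower in GPD1 cells (log2 difference -0.34, SE 0.07; limma, adjusted p = 0.00796), H2AFY2 1.32-fold lower (log2 difference -0.39, SE 0.05; limma, adjusted p = 3.0e-04) and H2AFJ 1.37-fold lower (log2 difference -0.43, SE 0.07; limma, adjusted p = 0.00133). H1FX was 1.12-fold higher (log2 difference 0.16, SE 0.05; limma, adjusted p = 0.0413), a call near the threshold that was lost without any 1 of 9 libraries (all but vector untreated replicate 2 and vector metformin replicates 1 and 3; limma, adjusted p = 0.0541 to 0.138) and under 6 of the other alternatives (limma, adjusted p = 0.0508 to 0.0966). With metformin H2AFX (1.46-fold; log2 difference -0.50, SE 0.07; limma, adjusted p = 1.6e-04) and H2AFZ (1.63-fold; log2 difference -0.65, SE 0.04; limma, adjusted p = 4.5e-07) were lower in GPD1 cells. H2AFJ was 1.19-fold lower (log2 difference -0.23, SE 0.07; limma, adjusted p = 0.0150), and that call was lost without vector metformin replicate 2 (limma, adjusted p = 0.0585), with median-ratio scaling (log2 difference -0.13; limma, adjusted p = 0.143), with upper-quartile scaling (log2 difference -0.09; limma, adjusted p = 0.264) and with the length trend removed (log2 difference -0.16; limma, adjusted p = 0.0639). H3F3B was 1.62-fold higher (log2 difference 0.68, SE 0.08; limma, adjusted p = 2.4e-05), H2AFY2 1.56-fold (log2 difference 0.59, SE 0.05; limma, adjusted p = 2.4e-06) and H3F3A 1.48-fold (log2 difference 0.48, SE 0.12; limma, adjusted p = 0.00626). H2AFV was 1.39-fold and H1FX 1.41-fold higher. H2AFY2 was thus lower in GPD1 cells without the drug and higher with it.

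**Figure D4:**
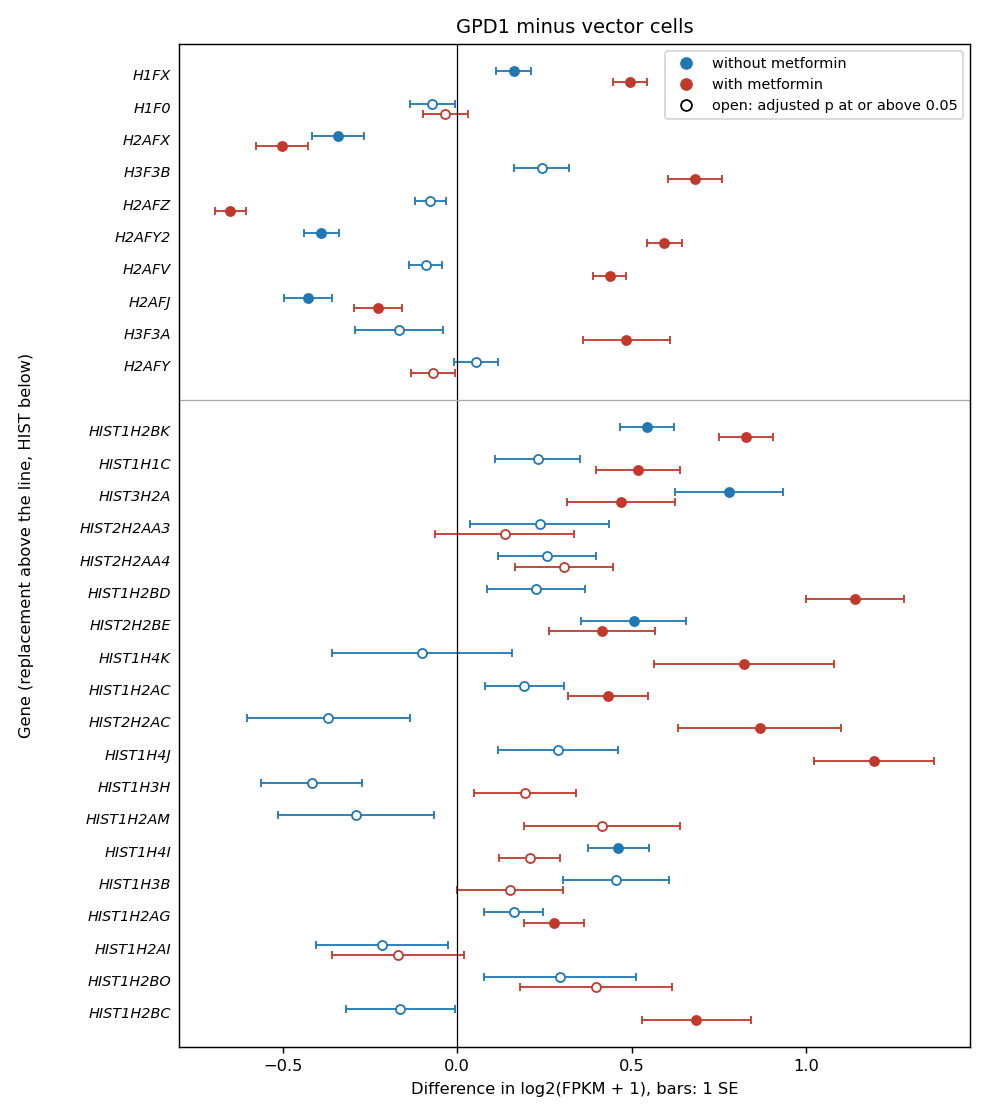
Difference in log2(FPKM + 1), GPD1 minus vector cells, with bars of 1 SE, for the 29 tested histone genes without and with metformin; open points did not pass the limma test at an adjusted p under 0.05. Of the 19 HIST genes 18 lie to the right of 0 with metformin, and H2AFX and H2AFZ are the lowest of the replacement genes with the drug.

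The interaction, the metformin response of GPD1 cells minus that of vector cells, was called positive by limma for 5 HIST genes and negative for 0 (0 at an unadjusted p under 0.05), and for replacement genes positive for 5 and negative for 1. Without vector untreated replicate 1 or 2 the negative calls over both classes numbered 2. Of all genes 19.1% were called positive and 26.8% negative (45.9% in all). HIST2H2AC (log2 difference 1.24, SE 0.33; limma, adjusted p = 0.0108), HIST1H2BD (log2 difference 0.91, SE 0.20; limma, adjusted p = 0.00330) and HIST1H2BC (log2 difference 0.85, SE 0.22; limma, adjusted p = 0.00964) fell with the drug in vector cells. In GPD1 cells HIST1H2BD fell less and HIST1H2BC did not pass the test. The difference of HIST2H2AC there was positive, at 0.31, and did not pass the test either. HIST2H2AC rested on few reads in treated vector libraries. HIST1H4J (log2 difference 0.90, SE 0.24; limma, adjusted p = 0.0113) rose in GPD1 cells, and its call was lost with a pseudocount of 0.1 (limma, adjusted p = 0.0640). HIST1H3H (log2 difference 0.61, SE 0.21; limma, adjusted p = 0.0321) lost its call without any 1 of 8 libraries (all but GPD1 metformin replicate 1, GPD1 untreated replicate 2, vector metformin replicate 1 and vector untreated replicate 1; limma, adjusted p = 0.0524 to 0.0732), with no filter (limma, adjusted p = 0.0809) and with a pseudocount of 0.1 (limma, adjusted p = 0.0646). Among replacement genes H2AFY2 had the largest value (log2 difference 0.98, SE 0.07; limma, adjusted p = 2.7e-06), followed by H3F3A (log2 difference 0.65, SE 0.18; limma, adjusted p = 0.0116), H2AFV and H3F3B (log2 difference 0.44, SE 0.11; limma, adjusted p = 0.00783). H1FX was positive (log2 difference 0.33, SE 0.07; limma, adjusted p = 0.00281). H2AFZ was the single negative one. H2AFX, whose fall was the largest, did not differ detectably (log2 difference -0.16, SE 0.11; limma, adjusted p = 0.235). Some other uncalled genes passed under alternatives. HIST1H2BK (log2 difference 0.28, limma adjusted p = 0.0555) and HIST1H4K (log2 difference 0.92, limma adjusted p = 0.0611) were each called positive under 6. H2AFJ (log2 difference 0.20, limma adjusted p = 0.119) was positive under 3 and HIST1H1C under 1. HIST1H4I and HIST1H3B were called negative under 1 each.

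The 48 members above 0 but under the level for a test are described by their levels. The 42 HIST genes among them had means from 0.00686 to 0.948 FPKM, the highest being HIST1H1E at 0.948 FPKM, next to HIST1H2BC, the lowest tested, at 1.02 FPKM. In vector cells the mean was lower with metformin for 34 of the 42 and higher for 8, and in GPD1 cells lower for 35 and higher for 7. Such counts were not made over all genes of these levels, so they show nothing particular to HIST genes. Fewer genes of any kind were above 0 in treated libraries. They numbered 24688 to 25099 against 26249 to 26704 untreated in vector cells, and 23472 to 23993 against 25471 to 26739 in GPD1 cells. Between GPD1 and vector cells the directions were more even, with 23 higher and 19 lower without the drug and 22 higher and 19 lower with it. With the level for a test set at 0.2 FPKM, 25 of the 48 entered. Of these limma called 3 higher and 7 lower with metformin in vector cells, against 25.2% and 39.3% of the 19957 genes tested at that level. In GPD1 cells it called 2 higher and 9 lower, against 19.2% and 42.7%. The shares called lower were thus not above those of all genes. HIST1H1E and HIST1H4C were higher in both. HIST1H1E, a linker gene, had 2 to 4 reads in untreated and 12 to 15 in treated vector libraries, and 5 to 8 and 15 to 27 in GPD1 libraries. HIST1H4C had 0 to 2 and 6 to 9 reads in vector cells, and 1 or 2 and 6 to 13 in GPD1 cells. HIST2H4A and HIST2H4B, which share 1 coding sequence, had 25.3 to 43.8 reads in untreated and 2.04 to 7.86 in treated vector libraries. HIST1H3E had 40.1 to 64.0 reads in untreated and 9.38 to 12.8 in treated vector libraries, and 34.1 to 59.7 and 8.53 to 10.2 in GPD1 libraries. The 10 genes listed at 0 were HIST1H1A, HIST1H1T, HIST1H2AA, HIST1H2AE, HIST1H2AK, HIST1H2BA, HIST1H4F, HIST1H4G, HIST1H4L and HIST2H3PS2.

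Among genes that make and end histone mRNA more were called lower than higher with metformin, as over all genes. Of 21 such genes 20 were tested. In vector cells 4 were called higher and 11 lower, against 31.3% and 43.3% of all genes, and in GPD1 cells 2 higher and 14 lower, against 26.1% and 48.0%. Their median log2 difference was -0.36 and -0.61, against -0.10 and -0.20 for all genes. NCBP1, the larger cap-binding subunit, went from 15.1 ± 0.806 to 4.38 ± 0.353 FPKM in vector cells (log2 difference -1.58, SE 0.06; limma, adjusted p = 1.4e-09). CSTF2, a cleavage stimulation factor subunit, went from 11.7 ± 1.26 to 2.16 ± 0.149 FPKM (log2 difference -2.00, SE 0.09; limma, adjusted p = 5.7e-09), and CPSF3, the endonuclease that cuts histone pre-mRNA, from 19.0 ± 0.262 to 7.03 ± 0.606 FPKM (log2 difference -1.32, SE 0.05; limma, adjusted p = 3.6e-09). LSM11, a subunit of the U7 particle that recognises histone pre-mRNA, rose from 2.46 ± 0.0769 to 7.37 ± 0.215 FPKM in vector cells (log2 difference 1.28, SE 0.06; limma, adjusted p = 1.6e-08) and from 2.25 ± 0.175 to 4.09 ± 0.409 FPKM in GPD1 cells (log2 difference 0.65, SE 0.06; limma, adjusted p = 3.9e-06). SRRT, which links the cap to 3′ end formation, fell in GPD1 cells from 9.29 ± 0.178 to 2.41 ± 0.115 FPKM (log2 difference -1.60, SE 0.06; limma, adjusted p = 4.2e-09). Between GPD1 and vector cells 1 gene was higher and 1 lower without the drug (9.99% and 11.3% of all genes), and 4 were higher and 10 lower with it (25.0% and 35.0%).

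Histone chaperones, which escort histones and place them on DNA, were lower with metformin. All 30 were tested. In vector cells 24 were called lower and 3 higher, against 43.3% and 31.3% of all genes, and in GPD1 cells 25 lower and 2 higher, against 48.0% and 26.1%, with medians of -0.79 and -0.78. ASF1B, the chaperone of H3 and H4 known from dividing cells, went from 14.1 ± 1.08 to 1.41 ± 0.107 FPKM in vector cells (log2 difference -2.64, SE 0.06; limma, adjusted p = 1.3e-10) and from 13.0 ± 0.822 to 2.83 ± 0.0616 FPKM in GPD1 cells (log2 difference -1.87, SE 0.06; limma, adjusted p = 1.5e-09). CHAF1B, a subunit of chromatin assembly factor 1, went from 9.15 ± 0.552 to 2.13 ± 0.0816 FPKM in vector cells (log2 difference -1.69, SE 0.06; limma, adjusted p = 1.3e-09). NAP1L1, a chaperone of H2A and H2B, rose in vector cells (log2 difference 0.37, SE 0.05; limma, adjusted p = 4.1e-05) and in GPD1 cells (log2 difference 0.59, SE 0.05; limma, adjusted p = 9.1e-07). SRCAP, which loads H2A.Z, was at 4.79 ± 0.445 FPKM in treated vector cells and 1.68 ± 0.0726 FPKM in treated GPD1 cells (log2 difference -1.11, SE 0.06; limma, adjusted p = 9.5e-08). Without the drug 0 chaperone genes were higher and 5 lower in GPD1 cells by limma (9.99% and 11.3% of all genes), and with it 9 were higher and 9 lower (25.0% and 35.0%).

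The DNA replication genes, which are transcribed in the same phase as the HIST genes, fell nearly throughout. Of 28 tested, 27 were called lower and 1, the licensing factor CDT1, higher in each kind of cell, with medians of -1.42 and -1.26. Of all genes 43.3% were called lower in vector cells and 48.0% in GPD1 cells. MCM3, a subunit of the replicative helicase, went from 25.3 ± 0.767 to 4.46 ± 0.241 FPKM in vector cells (log2 difference -2.27, SE 0.05; limma, adjusted p = 5.6e-11) and from 22.9 ± 0.462 to 4.88 ± 0.199 FPKM in GPD1 cells (log2 difference -2.03, SE 0.05; limma, adjusted p = 2.3e-10). FEN1, the flap endonuclease, went from 33.8 ± 1.73 to 1.07 ± 0.184 FPKM in GPD1 cells (log2 difference -4.08, SE 0.08; limma, adjusted p = 1.4e-10). The median fall of these genes was larger than that of the tested HIST genes in both kinds of cells, and no test of that difference was made. The added 1 in log2(FPKM + 1) shrinks the differences of weakly expressed HIST genes more, so the medians are not on equal terms. HIST values also hold only the polyadenylated share of their transcripts. Between GPD1 and vector cells 1 replication gene was higher and 10 lower without the drug (9.99% and 11.3% of all genes), and 8 were higher and 7 lower with it (25.0% and 35.0%).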

How the data were processed

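The 12 A549 libraries analysed hold polyadenylated RNA, 3 in each of 4 groups. The submitters' processing notes list HISAT2 2.1.0, CASAVA 1.8 and edgeR without a version, and name GRCh38/hg38. Which tool made the values, and from which annotation, is not given in the sources used here. In the deposited table no unit is named. Its values were read as FPKM made by the authors: multiplied by exon length, low values fall on whole multiples of 1 step per library (64.5% to 69.3% of the genes at no more than 10 steps, within 0.02 steps). RPKM would look the same. Reads per gene quoted in the text are values divided by that step.

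The 12607 genes whose mean over all libraries reached 1 FPKM entered 1 fit of log2(FPKM + 1) on 4 group means with limma 3.58.1 (empirical Bayes with a trend, R 4.3.3). Adjusted p-values are Benjamini-Hochberg over all genes tested in each of 5 comparisons, with 0.05 as the threshold. Since the added 1 shrinks log2 differences of weakly expressed genes, a fold in the text is the ratio of 2 group means in FPKM. The fit was also run on simulated data, and the outcome is not given here. Values per library are given for all tested replacement genes and the 12 HIST genes of highest mean, and up to 3 genes per direction with the smallest p could be named from each of 3 further lists (histone mRNA synthesis and processing, chaperones, DNA replication). The members and lists were chosen with earlier results of these data known. Gene models and stem-loops came from GENCODE release 29, promoters from RefSeq (GRCh38.p14). Alternatives were 3 other scalings, another pseudocount, 2 other filters, a fit of the compared groups alone, a replicate block, removal of the trend with transcript length, and leaving out each library.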

Additional observations from a re-analysis of the deposited data

Results flagged for a closer look

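For 11 of the 29 tested histone genes the metformin response of GPD1 cells differed from that of vector cells by limma's interaction term (adjusted p under 0.05, over all 12607 genes). Of all tested genes 45.9% passed the same test. The values below are log2 differences, GPD1 cells minus vector cells. The H2A variant genes H2AFY2 (0.98) and H2AFV (0.53) fell less with the drug in GPD1 cells, whereas H2AFZ (-0.57) fell more. Both genes for H3.3 were positive, H3F3A at 0.65 and H3F3B at 0.44, the first having fallen in vector cells and the second having risen in both. The linker gene H1FX was at 0.33. Among HIST genes the values were 1.24 for HIST2H2AC, 0.91 for HIST1H2BD, 0.90 for HIST1H4J, 0.85 for HIST1H2BC and 0.61 for HIST1H3H. HIST1H4J passed with 2 to 26 reads per library, and its adjusted p was 0.0640 with a pseudocount of 0.1 (limma). HIST2H2AC and HIST1H2BC also rested on few reads in treated vector libraries. Groups of 3 libraries are too small for a search for single outlying libraries.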

How the results depend on the processing

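Counts are of histone genes called in a direction by limma. The main fit tested 29. With a filter at a mean of 0.2 FPKM a further 25 entered, and with no filter all 77 above 0. The percentage after a count is the share of all genes in that fit called in the same direction. With metformin in vector cells 5 genes were higher (31.3%). The count was 8 with a filter at a mean of 0.2 FPKM (25.2%), 8 with no filter (15%) and 2 with totals taken without mitochondrial genes (21.3%). The genes that were lower went from 18 (43.3%) to 28 with no filter (25.4%). In GPD1 cells those higher went from 7 (26.1%) to 4 with totals without mitochondrial genes (13.5%). Those lower went from 14 (48%) to 23 with the filter at 0.2 FPKM (42.7%), 24 with no filter (26.4%) and 8 with median-ratio scaling (37.2%). The interaction's negative calls went from 1 (26.8%) to 2 with the filter at 0.2 FPKM (19.6%) or none (10.4%). More genes enter under these filters, and the cause of the other shifts was not tested. Directions turned for 5 single values that were called before or after the turn, with metformin in vector cells for H1F0 (-0.0296) and H3F3B (-0.0061) and in GPD1 cells for H1F0 (-0.0838), all with totals without mitochondrial genes, and in GPD1 cells for HIST1H2BK (0.0257) and H2AFJ (0.20) with median-ratio scaling. In addition 13 values of single genes (H2AFJ in GPD1 cells among them) turned under at least 1 setting other than leaving out a library without being called in either fit, at sizes of up to 0.201.

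Leaving out 1 library at a time gave 5 to 5 genes higher and 18 to 19 lower with metformin in vector cells, and 6 to 7 and 12 to 15 in GPD1 cells. For GPD1 without metformin it gave 3 to 6 higher and 3 to 4 lower, with metformin 13 to 17 and 2 to 3, and for the interaction 9 to 11 and 1 to 2. No pairing by replicate number was detected: deviations of same-numbered libraries correlated between -0.07 and 0.06, and 4 of 12 libraries correlated best with their own number. Such a check cannot exclude a shared culture or day. With the replicate block the counts were 5 and 19, 7 and 14, 4 and 3, 17 and 3, and 10 and 1, in the same order, all within 1.5 times. The fit of the compared groups alone was not run for the interaction, which uses all 4. HIST genes rest on few reads, the tested ones on means over the 12 libraries from 6.50 upward, with fewer in single libraries. Small differences among them were therefore not detectable at this depth.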
